A study of Rattus norvegicus with 547 samples.

Results

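Akr1b8 and Akr7a3 are aldo-keto reductases of the rat liver, and each was measured by 1 probe set of the array, ID.1370902_at for Akr1b8 and ID.1368121_at for Akr7a3. They were chosen by probe set ID, with earlier results of these data known, and they are 2 of the 31042 probe sets tested. The 2 gene names were given with these IDs, since no table here links the probe sets to genes. Expression was measured in cultivated hepatocytes from male Wistar rats, kept as sandwich cultures in 6-well dishes. The 547 arrays comprised 257 of cells exposed for 24 h to 1 of 29 compounds, 256 of cells kept for 24 h with solvent, and 34 of cells collected when incubation began (T0), without solvent or compound. The compounds were labelled genotoxic (GT, 9 compounds), non-genotoxic (NG, 11 compounds) or non-carcinogen (NC, 9 compounds). Each was used at a low, middle and high concentration in hepatocytes of 3 rats isolated on separate days. Dehydroepiandrosterone enters with its low and middle levels only, its high level being not analysed here, so there were 86 pairs of compound and level. Each pair had solvent control arrays of its own, from wells of the same dishes.

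Aldo-keto reductases use NADPH to reduce aldehydes and ketones to alcohols, and so take part in clearing reactive carbonyl compounds that arise from lipid peroxidation or from foreign chemicals. Akr1b8 belongs to the aldose reductase-like branch of the family, which also acts on retinaldehyde, and its human relative AKR1B10 is known for being raised in liver cancer. Akr7a3 encodes aflatoxin aldehyde reductase, which reduces the dialdehyde formed from aflatoxin B1 in rat liver. It is known for being induced there by antioxidant and other protective chemicals. In the RefSeq gene list of the assembly GRCr8, Akr1b8 lies beside Akr1b1, Akr1b7 and Akr1b10, and 5 pseudogenes carry the name of Akr1b8. Akr7a3 has 1 other Akr7a gene in that list, Akr7a2. How far the probe sets take up signal from these related sequences was not tested.

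The 250 bases before each gene start are shown because the members rose together under some compounds and parted under others. Both come from RefSeq with the build GRCr8, and both members had an entry. The Akr1b8 sequence is chr4:63964171-63964420 and the Akr7a3 sequence is chr5:156876471-156876720, both on the + strand, 5′ to 3′. Capitals mark matches to any of 3 motifs searched on both strands, TGACNNNGC (core of the antioxidant response element), AGGTCANAGGTCA (a direct repeat bound by peroxisome proliferator receptors) and GCGTG (core of the Ah receptor site).
Akr1b8: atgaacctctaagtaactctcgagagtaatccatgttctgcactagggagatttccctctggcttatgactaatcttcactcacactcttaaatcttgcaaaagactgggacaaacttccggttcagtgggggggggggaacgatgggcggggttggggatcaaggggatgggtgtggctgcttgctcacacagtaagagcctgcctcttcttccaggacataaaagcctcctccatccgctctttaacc
Akr7a3: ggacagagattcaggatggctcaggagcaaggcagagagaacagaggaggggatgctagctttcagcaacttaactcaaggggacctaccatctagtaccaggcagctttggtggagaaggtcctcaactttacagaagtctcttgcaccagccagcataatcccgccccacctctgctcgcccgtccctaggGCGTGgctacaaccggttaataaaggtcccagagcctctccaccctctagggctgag
The capitals in Akr7a3 are 1 match to GCGTG on the + strand, whose first base lies at -57 from the gene start. Akr1b8 held no match to the 3 motifs. Over the same window, 25.9% of 33469 RefSeq promoters held GCGTG, 10.1% held TGACNNNGC and 0.0508% held AGGTCANAGGTCA. A match describes letters only, and no match says nothing about binding.

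The values are log2 expression levels, so a difference of 1 is a doubling, and precision is limited by how many arrays there are. Array medians lay between 5.23 and 5.76, and 146 arrays had medians under 5.4. This limit was set on the data and no label names a batch, so batch means here only this split by median. In all, 4 arrays stood apart from the rest by their correlation with the other arrays. These were replicate 1 of acetaminophen at the high level, the replicate 1 control of dehydroepiandrosterone at the middle level, the replicate 2 control of N-nitrosopiperidine at the high level, and T0 replicate 19. A further 16 arrays had no spike-in signal. Among them were the 3 low-level controls and the 3 middle-level treated arrays of 2-acetylaminofluorene, and whether these 6 arrays carry the right labels was not settled. Prazosin at the high level had 3 treated and 2 control arrays, and 3-methylcholanthrene at the high level had 2 of each, so both had 2 dishes.

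Each treated array was set against the control array with the same level and replicate number, taken as 1 dish, and a change was called at an adjusted p under 0.05 over all probe sets. Akr1b8 rose in 10 of the 86 pairs, in 8 compounds, and fell in none. Akr7a3 rose in 13 pairs and fell in 3, in 12 compounds. Over all probe sets and pairs, 1.25% were called as rises and 1.48% as falls, so both members had more rises than the average probe set. Of all probe sets, 78 had at least as many rises as Akr1b8, itself included, and 28 had at least as many as Akr7a3. The members were chosen with earlier results of these data known, so these counts only describe them. The calls lay mostly at the high level, where Akr1b8 rose in 8 of 28 compounds, and Akr7a3 rose in 8 and fell in 3, against 2.81% rises and 3.26% falls over all probe sets. At the middle level Akr1b8 rose in 2 and Akr7a3 in 3 of 29 compounds, against 0.276% rises and 0.527% falls. At the low level Akr1b8 rose in none and Akr7a3 in 2, against 0.726% rises and 0.716% falls. The low level of 2-acetylaminofluorene alone had 31.8% of probe sets called, and without this compound the low-level shares were 0.25% rises and 0.108% falls. Most uncalled differences were also positive, with 62 of 86 for Akr1b8 and 60 of 86 for Akr7a3 when called and uncalled pairs are counted together. The median difference over the 86 pairs was 0.18 for Akr1b8 and 0.20 for Akr7a3, and 0.0057 over all probe sets. Treated and control arrays did not overlap in 32 of the 86 pairs for Akr1b8 and in 42 for Akr7a3, called or not. The share of such pairs over all probe sets was not counted, so a lack of overlap only describes the arrays here.

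**Figure D1:**
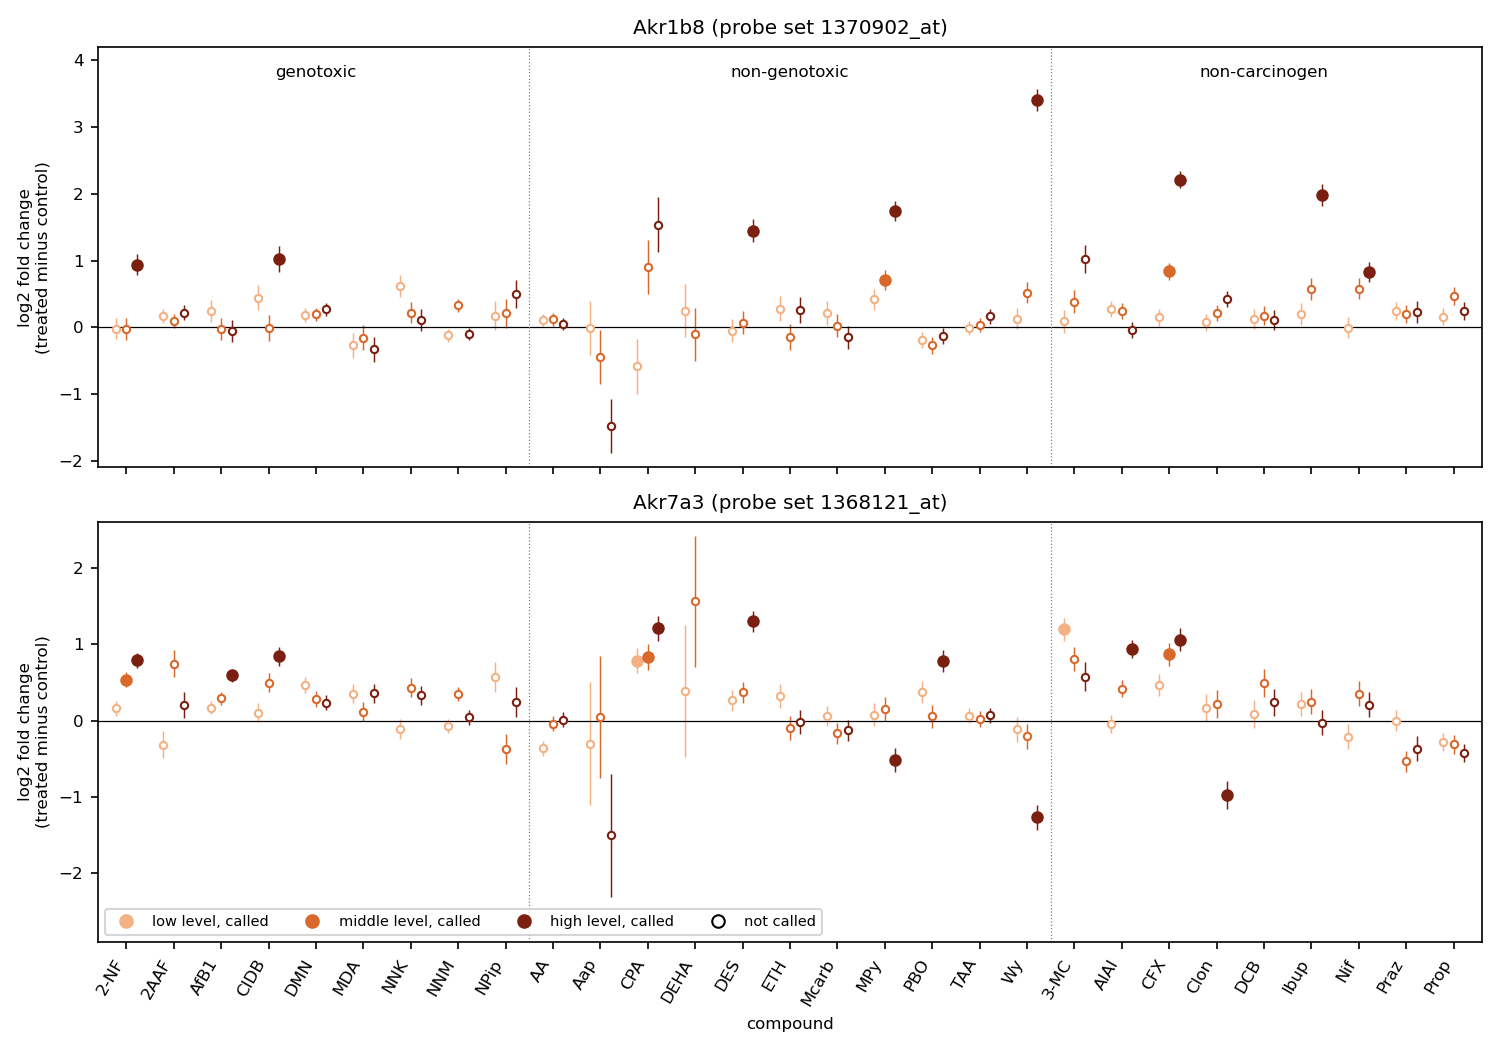
Log2 fold change (treated minus solvent control, y axis) of Akr1b8 (upper panel) and Akr7a3 (lower panel) for each compound (x axis, submitters' abbreviations, grouped by class), with low, middle and high concentration from left to right. Filled points passed the adjusted threshold and bars are ± 1 SE; Akr1b8 has 10 filled points, all above 0, and Akr7a3 has 13 above and 3 below.

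The largest rise of Akr1b8 was under Wy-14643, an agonist of the receptor PPARα. At 540.43 µM its level was 9.61, 12.02 and 11.64 on the 3 treated arrays, against 6.77, 8.29 and 7.99 on the 3 control arrays of the same dishes. The treated arrays were all above the controls, and dish 1 was the lowest in both groups. The log2 fold change was 3.41 ± 0.16 (3 dishes), or 10.6-fold, with an adjusted p of 9.66e-08. Here and for the later compound effects, the ± value is limma's SE, with a spread estimated over all levels of the compound. This rise was the largest of all 31042 probe sets in that comparison, where 16.3% were called. At 60.05 and 180.14 µM the differences were 0.13 and 0.52 and were not called. The second of these was called without replicate 1 (0.61, adjusted p = 0.0152). At the high level the mean of the GAPDH control probe sets differed by -1.04 between treated and control arrays. That of the beta-actin control probe sets differed by -0.88, and the part of this in the result was not tested. Later values named GAPDH or beta-actin are the same means.

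Akr1b8 also rose strongly under the antibiotic cefuroxime and the anti-inflammatory drug ibuprofen, both labelled non-carcinogens. With cefuroxime at 679.09 µM it reached 11.07, 10.84 and 10.87, against 8.81, 8.75 and 8.59 in controls. The treated and control arrays did not overlap, and the rise was 2.21 ± 0.13 (4.62-fold, adjusted p = 2.35e-06), in a comparison where 8.28% of all probe sets were called. At 226.36 µM the levels were 9.96, 9.73 and 9.55, against 9.03 for the highest of the controls, a rise of 0.84 ± 0.13 (adjusted p = 0.00812), where 1.8% of all probe sets were called. At 75.45 µM the difference of 0.15 was not called, so the change grew with concentration. With ibuprofen at 920 µM the levels were 11.16, 11.80 and 11.63, against 9.70, 9.56 and 9.38 in controls. The rise was 1.98 ± 0.17 (3.94-fold, adjusted p = 5.36e-05), and GAPDH differed by -0.75 in the same comparison, where 17.1% of all probe sets were called. The middle and low levels of ibuprofen gave 0.57 and 0.20, neither called. The cefuroxime rise at 226.36 µM was lost without replicate 1 (0.77, adjusted p = 0.131), without replicate 2 (0.75, adjusted p = 0.123) and with a mean-dependent, robust spread (adjusted p = 0.198).

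Methapyrilene, an antihistamine that damages rat liver, raised Akr1b8 at 2 levels. At 44.39 µM the treated arrays had 10.07, 10.34 and 11.03, against 8.73, 8.71 and 8.77 in controls. The controls lay close together and all treated arrays were above them, a rise of 1.74 ± 0.15 (3.35-fold, adjusted p = 1.29e-05), where 13.6% of all probe sets were called. At 14.78 µM the levels were 9.69, 9.86 and 9.79, against 9.03, 9.18 and 8.98, a rise of 0.71 ± 0.15 (adjusted p = 0.0169), where 5.45% were called. GAPDH was higher by 0.49 in that comparison. The middle-level rise was not called without replicate 1 (0.74, adjusted p = 0.117), without replicate 2 (0.74, adjusted p = 0.222) or with the robust spread (adjusted p = 0.0825). At 1.92 µM the difference was 0.42 (adjusted p = 1.0).

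Under the synthetic oestrogen diethylstilbestrol Akr1b8 rose at the high level, and its controls there were among the lowest of the study. At 12.15 µM the levels were 8.85, 8.85 and 8.46, against 7.41, 7.06 and 7.34 in controls. The groups were far apart, with a rise of 1.45 ± 0.17 (2.73-fold, adjusted p = 0.000148), where 9.03% of all probe sets were called. The treated mean of 8.72 was near the median control array of the whole series, 8.81, with 2 treated arrays above it and 1 below. At 1.35 and 4.05 µM the differences were -0.05 and 0.07.

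The remaining rises of Akr1b8 were near or below 1 on the log2 scale. With the azo dye C.I. Direct Black at 17.28 µM the levels were 9.75, 9.83 and 9.97, against 8.79, 8.79 and 8.90, a rise of 1.03 ± 0.19 (adjusted p = 0.00243), where 10.6% of all probe sets were called. With the nitroarene 2-nitrofluorene at 43.13 µM they were 10.05, 9.70 and 9.46, against 8.80, 8.69 and 8.90, a rise of 0.94 ± 0.16 (adjusted p = 0.00302), where 4.32% were called. With the calcium channel blocker nifedipine at 600 µM they were 9.50, 9.43 and 9.23, against 8.64, 8.36 and 8.66, a rise of 0.83 ± 0.15 (adjusted p = 0.0342), where 0.796% were called. In all 3 compounds no treated array overlapped a control array, as in 32 of all 86 pairs for Akr1b8. The nifedipine call was the least stable. It was lost without any 1 of the replicates (0.71 to 0.96, adjusted p between 0.0557 and 0.447), with no replicate block (adjusted p = 0.482), after quantile normalization (0.58, adjusted p = 0.0760) and with the robust spread (adjusted p = 0.220). The 2-nitrofluorene call was lost without replicate 1 (0.78, adjusted p = 0.117) and without replicate 2 (0.90, adjusted p = 0.0639), and that of C.I. Direct Black without replicate 2 (1.02, adjusted p = 0.0585). The other 5 calls, at the high level of Wy-14643, cefuroxime, ibuprofen, methapyrilene and diethylstilbestrol, held under every alternative that could change them. The batch term could be fitted only for N-nitrosomorpholine, diethylstilbestrol and ethionine, the spike-in term only for N-nitrosopiperidine, methylendianiline and methylcarbamate, and the distant arrays touch only acetaminophen, dehydroepiandrosterone and N-nitrosopiperidine. For every other compound these 3 alternatives repeat the fit as reported.

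**Figure D2:**
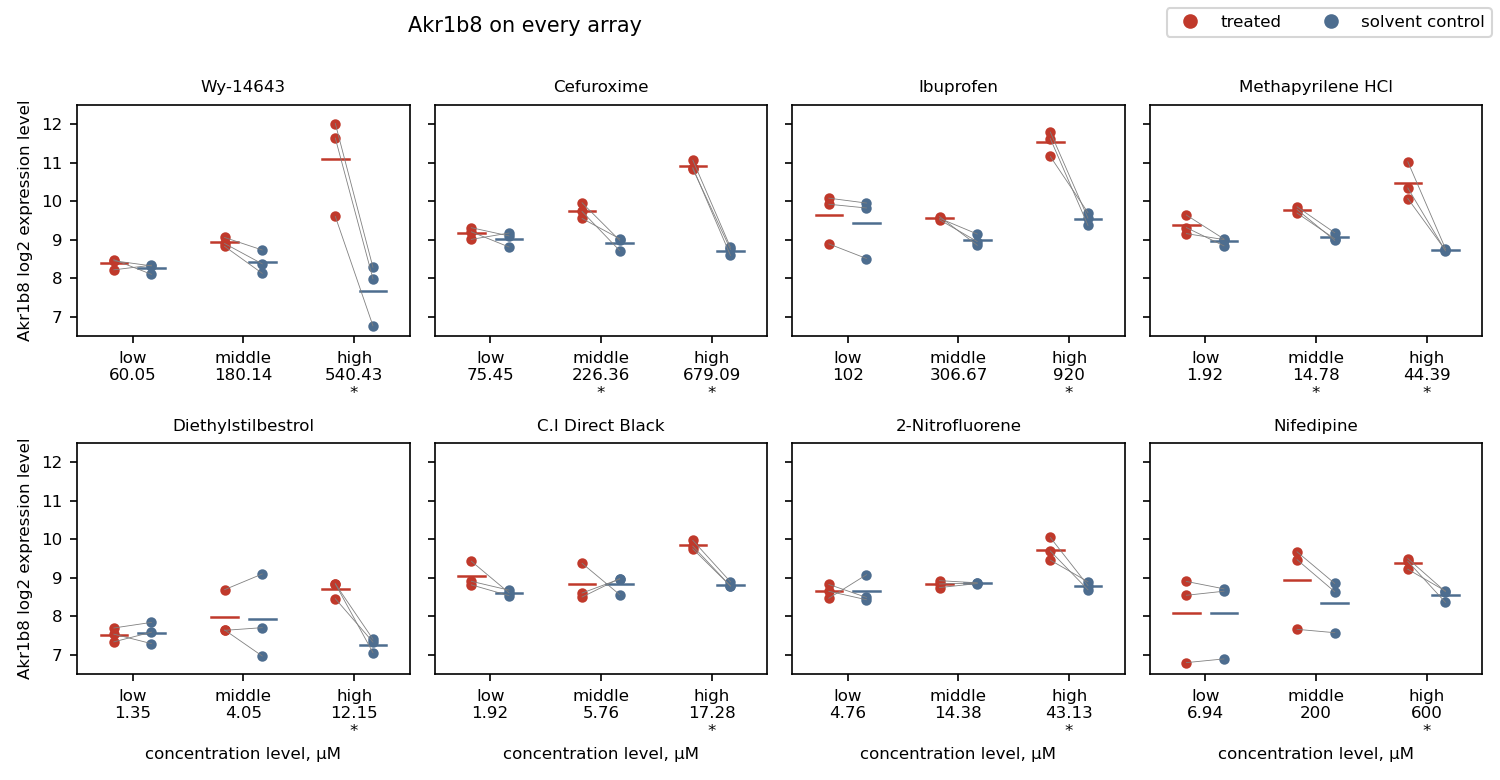
Akr1b8 log2 expression level (y axis) on every treated and solvent control array of the 8 compounds in which it was called, by concentration (x axis, µM); grey lines join arrays taken as 1 dish, bars are means and asterisks mark called levels. With Wy-14643 at 540.43 µM the 3 treated arrays lie between 9.61 and 12.02 and the 3 controls between 6.77 and 8.29.

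Some differences of Akr1b8 were of similar size but did not pass. With cyproterone acetate, a steroid that blocks androgen receptors, at 100 µM the levels were 9.77, 9.54 and 11.68, against 8.99, 9.0 and 8.39. The third dish stood out, and the difference was 1.54 ± 0.41 (adjusted p = 0.0733). It was 0.66 without replicate 3, and the call was reached with no replicate block (adjusted p = 0.0422), after quantile normalization (1.59, adjusted p = 0.0483) and with a spread pooled over compounds (adjusted p = 1.27e-08). At 33 µM the difference was 0.90 ± 0.41, called only with the pooled spread (adjusted p = 0.00306), and at 1.11 µM it was -0.59 ± 0.41. The 2 dishes of 3-methylcholanthrene at 5.76 µM had 9.69 and 9.93, against 8.39 and 9.19, a difference of 1.02 ± 0.21 (adjusted p = 0.0804). This was called with the pooled spread (adjusted p = 0.0102) and when replicate 3 of the other levels was left out (adjusted p = 0.0448). With 4-(methylnitrosamino)-1-(3-pyridyl)-1-butanone (NNK) at 88 µM the difference was 0.62, not called. It was called without replicate 1 (0.96, adjusted p = 0.0108) and not without replicate 2 (0.52) or replicate 3 (0.39, adjusted p = 0.649). Acetaminophen at 1000 µM gave 6.37, 8.55 and 8.02, against 9.26, 9.17 and 8.93, a difference of -1.48 ± 0.40 (adjusted p = 0.155). The first treated array is one of those that stood apart, and without it the difference was -0.77 (adjusted p = 0.0834). With the pooled spread and all arrays it was called as a fall (adjusted p = 3.82e-09). In the 21 compounds with no call, and leaving out acetaminophen and dehydroepiandrosterone, differences lay between -0.59 and 1.54.

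Akr7a3 rose under compounds of all 3 classes, and its largest rise was 1.3 on the log2 scale. Diethylstilbestrol at 12.15 µM gave 12.03, 11.92 and 11.85, against 10.82, 10.50 and 10.60. The groups were well separated, with a rise of 1.3 ± 0.14 (2.46-fold, adjusted p = 5.92e-05). Cefuroxime at 679.09 µM gave 12.24, 12.11 and 12.09, against 10.96, 11.58 and 10.71, a rise of 1.06 ± 0.15 (adjusted p = 0.000859). The control of dish 2 was high, so that dish rose least. At 226.36 µM the levels were 11.74, 11.35 and 11.56, against 10.69, 10.66 and 10.71, a rise of 0.86 ± 0.15 (adjusted p = 0.0123). At 75.45 µM the difference was 0.47 (adjusted p = 0.643). Allyl alcohol, which liver cells oxidise to the reactive aldehyde acrolein, gave 11.65, 11.78 and 11.62 at 27.69 µM, against 10.72, 10.70 and 10.81. That rise was 0.94 ± 0.11 (adjusted p = 0.000305), where 7.36% of all probe sets were called, while Akr1b8 differed by -0.04 in the same dishes.

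Cyproterone acetate raised Akr7a3 at all 3 levels. At 1.11 µM the levels were 11.92, 11.66 and 11.54, against 11.23, 10.74 and 10.79, a rise of 0.78 ± 0.17 (adjusted p = 0.0307), where 3.11% of all probe sets were called. At 33 µM they were 11.32, 11.19 and 10.83, against 10.42, 10.42 and 9.98, a rise of 0.83 ± 0.17 (adjusted p = 0.0196), where 3.5% were called. At 100 µM they were 11.23, 11.75 and 10.67, against 9.92, 10.05 and 10.07, a rise of 1.2 ± 0.17 (2.30-fold, adjusted p = 0.00227), where 3.25% were called. No treated array overlapped a control at any level. The difference between the highest and the lowest level was not called. The low-level rise was lost without any 1 replicate (0.72 to 0.83, adjusted p between 0.0726 and 0.169), with no replicate block (adjusted p = 0.0603), with the robust spread (adjusted p = 0.0755) and with the pooled spread (adjusted p = 0.0820). The middle-level rise was lost without replicate 1 (0.81, adjusted p = 0.246), without replicate 2 (0.87, adjusted p = 0.0799), with the robust spread (adjusted p = 0.0667) and with the pooled spread (adjusted p = 0.0738). The high-level rise was lost without replicate 1 (1.15, adjusted p = 0.0859) and without replicate 2 (0.96, adjusted p = 0.0565).

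The polycyclic compounds 3-methylcholanthrene and 2-nitrofluorene also raised Akr7a3. The labels place 3-methylcholanthrene, an agonist of the Ah receptor, among the non-carcinogens, and this label was taken as given. With it at 0.64 µM the levels were 11.90, 11.81 and 11.64, against 10.57, 10.48 and 10.74. The rise was 1.19 ± 0.16 (2.28-fold, adjusted p = 0.0130), in a comparison where 0.251% of all probe sets were called. It was not called without replicate 1 (1.12, adjusted p = 0.514), without replicate 2 (1.12, adjusted p = 0.515) or with the robust spread (adjusted p = 0.0553). At 1.92 µM the levels were 11.67, 11.58 and 11.28, against 10.61, 10.94 and 10.57, a difference of 0.81 ± 0.16 (adjusted p = 0.0702). This was called with no replicate block (adjusted p = 0.0260), after quantile normalization (0.88, adjusted p = 0.0445) and over the probe sets above the median mean level (adjusted p = 0.0401). At 5.76 µM the 2 dishes had 11.85 and 11.67, against 11.33 and 11.05, a difference of 0.57 ± 0.19. The treated means were 11.79, 11.51 and 11.76 from the low to the high concentration, and the control means were 10.59, 10.71 and 11.19. With 2-nitrofluorene at 43.13 µM the levels were 11.70, 11.70 and 11.75, against 10.93, 10.84 and 11.01, a rise of 0.79 ± 0.10 (adjusted p = 0.000206). At 14.38 µM they were 11.22, 11.31 and 11.45, against 10.76, 10.78 and 10.83, a rise of 0.54 ± 0.10 (adjusted p = 0.0210), where 0.654% of all probe sets were called. With the pooled spread neither was called (adjusted p of 0.204 at 43.13 µM and 0.889 at 14.38 µM). That spread includes the dishes with distant arrays, and the SE of Akr7a3 was 0.80 for acetaminophen and 0.86 for dehydroepiandrosterone. The part of these dishes in the calls lost with the pooled spread was not tested. The middle-level call was also lost without any 1 replicate (0.50 to 0.58, adjusted p between 0.0722 and 0.380) and with the robust spread (adjusted p = 0.128).

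The other 3 rises of Akr7a3 were under C.I. Direct Black, piperonylbutoxide and aflatoxin B1, the toxin whose aldehyde the enzyme reduces. C.I. Direct Black at 17.28 µM gave 11.28, 11.30 and 11.32, against 10.90, 10.12 and 10.34, a rise of 0.84 ± 0.12 (adjusted p = 0.000491). Piperonylbutoxide, an inhibitor of cytochromes P450, gave 11.17, 11.25 and 11.28 at 31.69 µM, against 10.74, 10.60 and 10.03, a rise of 0.78 ± 0.15 (adjusted p = 0.0166), where 2.67% of all probe sets were called. In both, the treated arrays lay close together and the controls were spread. Aflatoxin B1 at 0.0028 µM gave 11.64, 11.37 and 11.07, against 10.90, 10.77 and 10.64, a rise of 0.59 ± 0.09 (1.51-fold, adjusted p = 0.00582), where 4.03% were called. Its lower levels gave 0.17 at 0.00031 µM and 0.29 at 0.00093 µM, not called, with every dish positive at all 3 levels. Akr1b8 differed by -0.06 in the high-level dishes. All 3 calls were lost without replicate 2 (adjusted p of 0.0563 for C.I. Direct Black, 0.241 for piperonylbutoxide and 0.206 for aflatoxin B1) and with the pooled spread (adjusted p of 0.0703 for C.I. Direct Black, 0.147 for piperonylbutoxide and 1.0 for aflatoxin B1). That of aflatoxin B1 was also lost without replicate 1 (0.52, adjusted p = 0.119) and that of piperonylbutoxide without replicate 3 (0.54, adjusted p = 0.0755).

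Akr7a3 fell at the high level of 3 compounds. Wy-14643 at 540.43 µM gave 9.80, 9.04 and 8.66, against 10.76, 10.37 and 10.17. All treated arrays were below the controls, and the change was -1.27 ± 0.16 (0.416-fold, adjusted p = 0.000217). GAPDH differed by -1.04 and beta-actin by -0.88 in the same comparison, and their part was not tested. The antihypertensive drug clonidine at 909 µM gave 10.47, 10.05 and 9.65, against 11.05, 11.25 and 10.78, a change of -0.97 ± 0.18 (adjusted p = 0.0177), where 2.67% of all probe sets were called. GAPDH differed by -0.42 there, and its part was not tested. Methapyrilene at 44.39 µM gave 10.63, 10.10 and 10.48, against 10.88, 10.96 and 10.91, a change of -0.51 ± 0.16 (adjusted p = 0.0444). The methapyrilene fall was lost with no replicate block (adjusted p = 0.115), after quantile normalization (-0.46, adjusted p = 0.0991), with the pooled spread (adjusted p = 0.275), without replicate 1 (-0.64, adjusted p = 0.0709) and without replicate 2 (-0.34, adjusted p = 0.362). The clonidine fall was lost without any 1 replicate (-1.17 to -0.86, adjusted p between 0.0617 and 0.369). Of the 16 calls of Akr7a3, those at the high level of diethylstilbestrol, allyl alcohol and Wy-14643 held under every alternative that could change them. The cefuroxime rise was lost at the high level without replicate 1 (0.95, adjusted p = 0.0514). At the middle level it was lost without any 1 replicate (0.77 to 0.95, adjusted p between 0.0552 and 0.196), with the robust spread (adjusted p = 0.157) and with the pooled spread (adjusted p = 0.171).

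**Figure D3:**
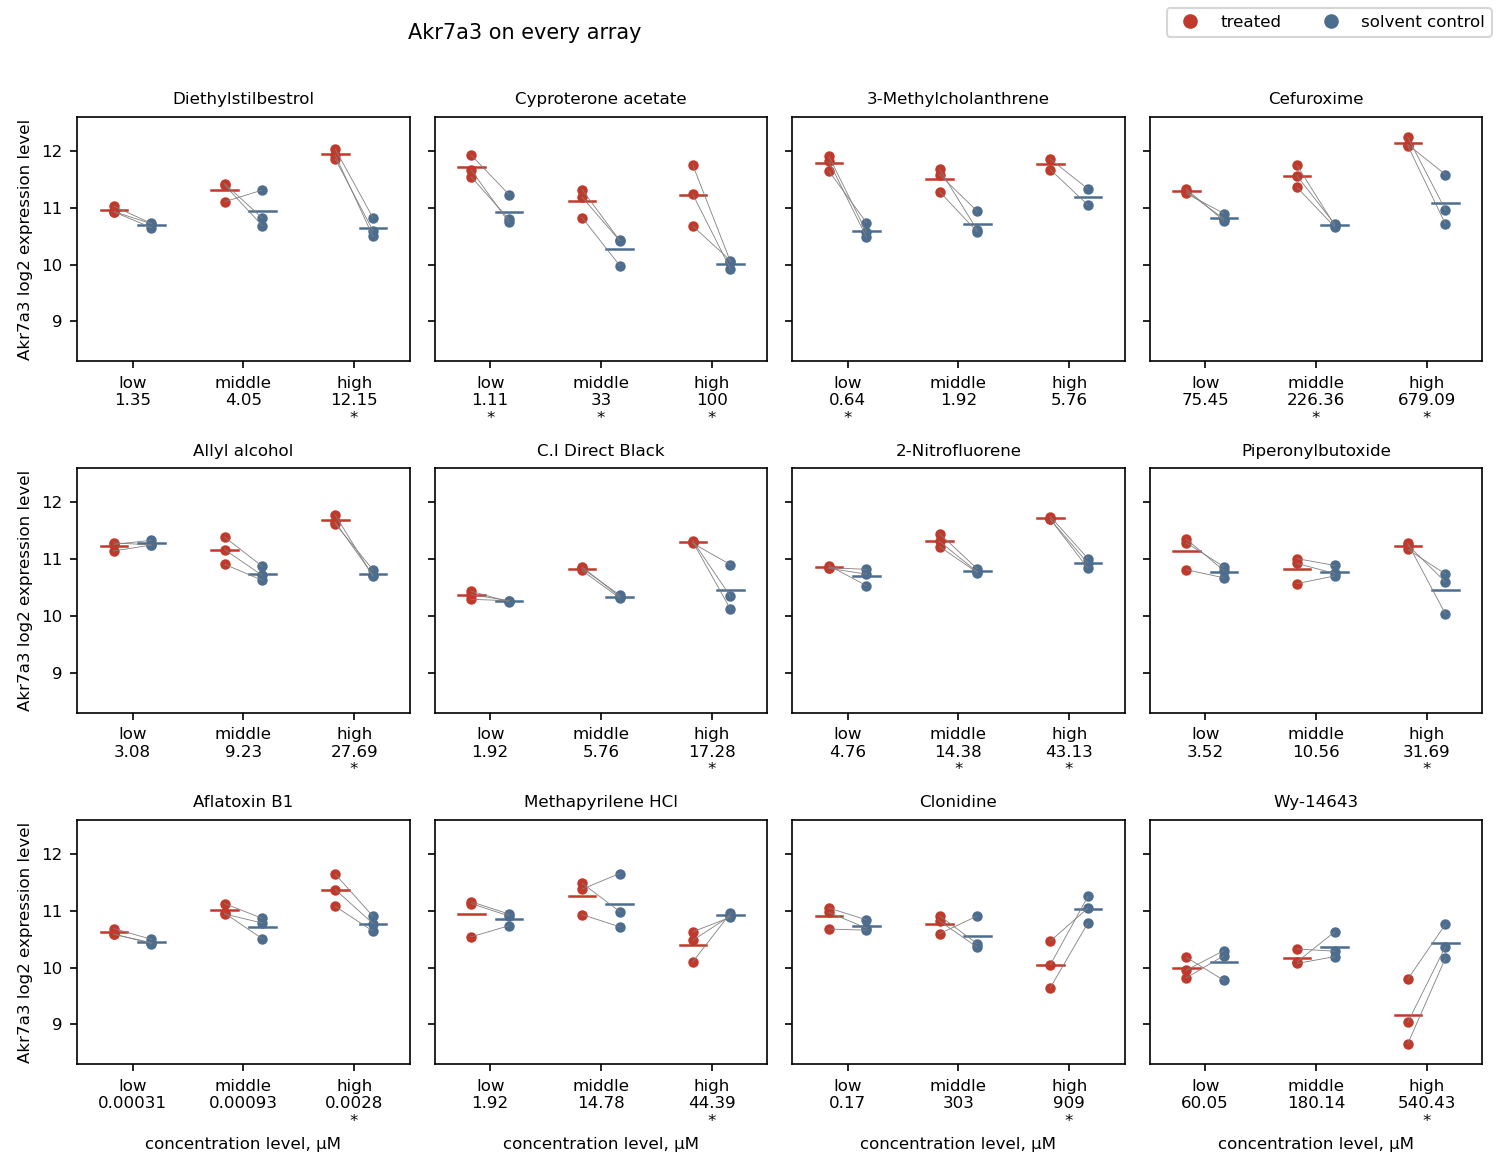
Akr7a3 log2 expression level (y axis) on every treated and solvent control array of the 12 compounds in which it was called, by concentration (x axis, µM); grey lines join arrays taken as 1 dish, bars are means and asterisks mark called levels. The falls are at the high level of methapyrilene, clonidine and Wy-14643, where treated levels reach 8.66 with Wy-14643.

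Among differences of Akr7a3 that did not pass, the widest rested on arrays that stood apart. Dehydroepiandrosterone at 88.9 µM gave 11.10, 10.88 and 10.23, against 6.41, 10.11 and 11.002. The first control is such an array, and the difference of 1.56 ± 0.86 was -0.0049 without its dish. Acetaminophen at 1000 µM gave 5.68, 10.16 and 10.45, against 10.29, 10.34 and 10.16, and the difference of -1.50 ± 0.80 was 0.05 without the first dish. With the pooled spread and all arrays both were called (adjusted p of 7.16e-06 for dehydroepiandrosterone and 1.60e-06 for acetaminophen). With 2-acetylaminofluorene at 0.33 µM the levels were 11.29, 10.77 and 10.98, against 10.38, 10.33 and 10.09, a difference of 0.74 ± 0.17 (adjusted p = 0.0774). Its 3 treated arrays, and the 3 controls of the low level, are those of doubtful label without spike-in signal, and the part of this was not tested. At 0.11 µM Akr7a3 differed by -0.31 and at 0.99 µM by 0.20, neither called. The difference was called with no replicate block (adjusted p = 0.0367) and without replicate 2 (0.90, adjusted p = 0.00953). Propranolol gave -0.28, -0.31 and -0.43 at 4.76, 14.29 and 42.86 µM, negative in every dish but not called (adjusted p of 0.0524 at the high level). With N-nitrosomorpholine at 152.33 µM 42.8% of all probe sets were called, while Akr7a3 differed by 0.04 ± 0.09 and Akr1b8 by -0.10 ± 0.09. Array medians were higher by 0.11 on the treated arrays there. Over all levels, 2 dishes of this compound paired arrays of different batches, and the part of this in the share called was not tested. N-nitrosopiperidine at 49 µM gave 0.57 and prazosin at 0.00257 µM gave -0.53 for Akr7a3, neither called. In the 17 compounds with no call of Akr7a3, leaving out acetaminophen and dehydroepiandrosterone, differences lay between -0.53 and 0.74.

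The members were called in partly different compounds. Both rose in 5 pairs, the high levels of 2-nitrofluorene, C.I. Direct Black, diethylstilbestrol and cefuroxime and the middle level of cefuroxime. In 2 pairs, the high levels of Wy-14643 and methapyrilene, Akr1b8 rose and Akr7a3 fell. Akr1b8 was called alone in 3 pairs, Akr7a3 alone in 9, and neither in 67. Their differences had the same sign in 48 of 86 pairs. As a description over these pairs, which share the arrays of each dish, Pearson's r was 0.06 and Spearman's rho 0.05. Without the 3 pairs that hold distant arrays r was -0.03 over 83 pairs.

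**Figure D4:**
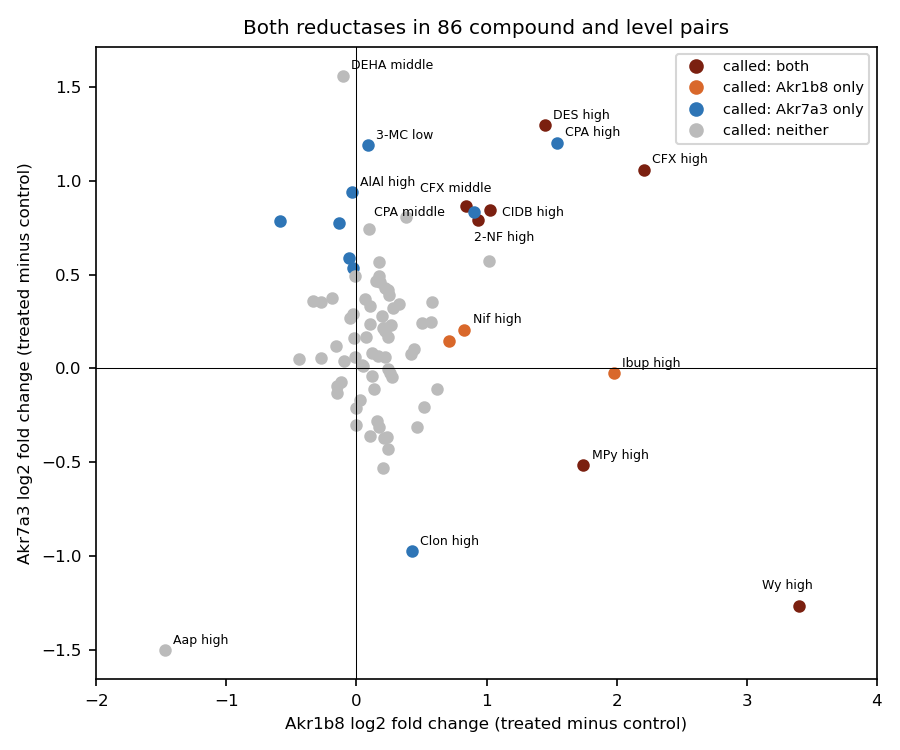
Log2 fold change of Akr7a3 (y axis) against that of Akr1b8 (x axis), 1 point for each of the 86 compound and level pairs, coloured by which member was called. Wy-14643 at the high level lies at 3.41 for Akr1b8 and -1.27 for Akr7a3, while diethylstilbestrol at the high level lies at 1.45 for Akr1b8 and 1.3 for Akr7a3.

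The effect at the highest concentration was also compared with that at the lowest within each compound. Over all probe sets and compounds 2.38% of these contrasts were called. Akr1b8 had 5, all higher at the top concentration, with differences of 3.27 for Wy-14643, 2.06 for cefuroxime, 1.78 for ibuprofen, 1.5 for diethylstilbestrol and 1.33 for methapyrilene. The largest adjusted p of these was 0.00961, for diethylstilbestrol. The diethylstilbestrol contrast was lost with no replicate block (adjusted p = 0.255) and with array batch as a term (1.33, adjusted p = 0.0667), and that of methapyrilene with the robust spread (adjusted p = 0.0548). Without replicate 2 both were lost, and so was that of ibuprofen (1.60, adjusted p = 0.141). The ibuprofen contrast was also lost without replicate 3 (1.73, adjusted p = 0.0571), and that of cefuroxime without replicate 1 (2.16, adjusted p = 0.0819). Only that of Wy-14643 held under every alternative. Akr7a3 also had 5, of which 4 were positive, with 1.03 for diethylstilbestrol, 0.98 for allyl alcohol, 0.74 for C.I. Direct Black and 0.63 for 2-nitrofluorene. For Wy-14643 it was -1.15 (adjusted p = 0.00767). The diethylstilbestrol contrast of Akr7a3 was also lost with the batch term (0.97, adjusted p = 0.126), and that of C.I. Direct Black after quantile normalization (0.59, adjusted p = 0.102). With the robust spread Akr7a3 lost those of diethylstilbestrol (adjusted p = 0.131) and 2-nitrofluorene (adjusted p = 0.203). With the pooled spread none of its 5 contrasts was called, and the lowest adjusted p of these was 0.0643, for Wy-14643. Cyproterone acetate and 3-methylcholanthrene, the 2 compounds that raised Akr7a3 at the low level, were not among the 5 compounds with a called contrast of Akr7a3. Without replicate 2 the counts were 2 for Akr1b8 and 0 for Akr7a3, and for Akr7a3 they were 3 without replicate 1 and 1 without replicate 3.

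The labels place each compound in 1 class, and the classes were compared with 1 value per compound, its effect at the highest level analysed here. Class labels were taken as given and not checked, also for 3-methylcholanthrene, which enters the NC values. No class difference was called for either member. Akr1b8 averaged 0.29 ± 0.46 (SD, n = 9) in GT compounds, 0.61 ± 1.31 (n = 11) in NG compounds and 0.78 ± 0.82 (n = 9) in NC compounds. Akr7a3 averaged 0.40 ± 0.28, 0.13 ± 1.01 and 0.14 ± 0.66 in the same classes. For GT minus NC the difference in Akr1b8 was -0.49 (95% interval -1.36 to 0.37) and in Akr7a3 it was 0.27 (-0.40 to 0.93), so both intervals include differences of either sign. Of all probe sets, limma called 1 (0.00322%) for GT minus NG and 0 (0%) for each other contrast, while 477 passed an unadjusted p of 0.05 for GT minus NG, 785 for GT minus NC and 1302 for NG minus NC. Akr7a3 was positive in 9 of 9 GT compounds, 6 of 11 NG compounds and 5 of 9 NC compounds, while Akr1b8 was so in 6 of 9 GT compounds, 7 of 11 NG compounds and 8 of 9 NC compounds. Of all probe sets, 0.457% were positive in all 9 GT compounds. Called rises of Akr1b8 came from 2 GT, 3 NG and 3 NC compounds, and those of Akr7a3 from 3 compounds in each class. The distant arrays of acetaminophen and dehydroepiandrosterone enter the NG values, and without them the NG mean of Akr7a3 was 0.13 ± 0.74. That of N-nitrosopiperidine enters the GT values, and without it the GT mean of Akr7a3 was 0.38 ± 0.30, with 9 of 9 still positive. A positive value can be close to 0, as with N-nitrosomorpholine (0.04).

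Among compounds related by name and used at equal concentrations, 9 pairs were compared, with adjustment over all probe sets and pairs. These were the N-nitroso compounds dimethylnitrosamine, NNK and N-nitrosopiperidine at 1000 and 333 µM, and acetamide and methylcarbamate at 1000, 333.3 and 111.1 µM. Over all probe sets and pairs 0.675% were called. Only 1 difference was called for a member, that of Akr7a3 between N-nitrosopiperidine and NNK at 333 µM. There, N-nitrosopiperidine dishes had 10.58, 10.87 and 10.88 against 11.03, 11.09 and 11.31 in controls, and NNK dishes had 10.50, 10.50 and 10.61 against 9.83, 10.17 and 10.32. All 3 dishes were lower than their controls with N-nitrosopiperidine, a cyclic nitrosamine, and higher with NNK, a tobacco nitrosamine with a pyridine ring. The treated means were 10.78 with N-nitrosopiperidine and 10.54 with NNK, and the control means differed more, with 11.15 for N-nitrosopiperidine and 10.11 for NNK. The effects were -0.37 and 0.43, neither called by itself, and they differed by -0.80 ± 0.16 (95% interval -1.14 to -0.45, adjusted p = 0.0309), in a pair where 4.02% of probe sets were called. GAPDH differed by -0.42 and beta-actin by -0.31 with N-nitrosopiperidine there, against 0.09 for GAPDH and -0.0018 for beta-actin with NNK, and their part was not tested. At 1000 µM the same pair differed by -0.09 (-0.57 to 0.40), and by -0.30 (-0.74 to 0.13) without the dish that holds the distant control of N-nitrosopiperidine. N-nitrosopiperidine minus dimethylnitrosamine at 333 µM gave -0.65 (-0.995 to -0.30, adjusted p = 0.0881) for Akr7a3. The NNK call was lost with no replicate block (adjusted p = 0.0562) and without any 1 replicate (-0.92 to -0.64, adjusted p between 0.116 and 0.212), and after quantile normalization the dimethylnitrosamine pair was called too (-0.73, adjusted p = 0.0373). For Akr1b8 no pair was called, and the widest difference was 0.39 (0.02 to 0.76) for N-nitrosopiperidine minus NNK at 1000 µM, or 0.48 (0.10 to 0.86) without that dish. Acetamide and methylcarbamate differed for Akr1b8 by 0.20 (-0.25 to 0.66) at 1000 µM, 0.09 (-0.27 to 0.45) at 333.3 µM and -0.11 (-0.54 to 0.32) at 111.1 µM. For Akr7a3 they differed by 0.14 (-0.26 to 0.54), 0.13 (-0.18 to 0.44) and -0.42 (-0.78 to -0.06) at the same concentrations.

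After 24 h with solvent the mean of Akr1b8 was lower than at T0 and that of Akr7a3 slightly higher. T0 cells had no solvent, so time in culture and solvent cannot be told apart. Control arrays that shared a compound and a replicate number were averaged, which gave 87 values to set against the T0 arrays. Akr1b8 averaged 8.77 ± 0.55 (SD, n = 87) after 24 h with solvent, against 10.26 ± 0.97 (n = 34) at T0. The control values ran from 7.33 over a median of 8.80 to 9.68, and the T0 arrays from 6.48 over a median of 10.53 to 11.50. All 87 control values were below the T0 median. The lowest T0 value is the array that stood apart, and the next T0 array had 8.86. The change was -1.49 ± 0.14 (0.355-fold, adjusted p = 3.58e-18), and -1.60 without the distant arrays. It was -1.61 within the batch of lower medians and -1.34 within the other. Akr7a3 averaged 10.60 ± 0.37 after 24 h, against 10.35 ± 0.30 at T0, a rise of 0.25 ± 0.07 (1.19-fold, adjusted p = 0.00186). Its control values ran from 8.63 over 10.64 to 11.18, and its T0 arrays from 9.69 over 10.27 to 10.98, so the groups overlapped widely. The mean difference was 0.22 within the batch of lower medians and 0.31 within the other, and 0.14 (adjusted p = 0.0576) after quantile normalization. In the batch of lower medians the group medians were nearly equal, 10.80 after 24 h and 10.80 at T0, with 14 control values above the T0 median and 14 below. In this comparison 44.8% of all probe sets were called, 23.5% as rises and 21.4% as falls. The rat behind each T0 array is not given in the sources used here, and if control values of different compounds share rats these p-values are too small.

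**Figure D5:**
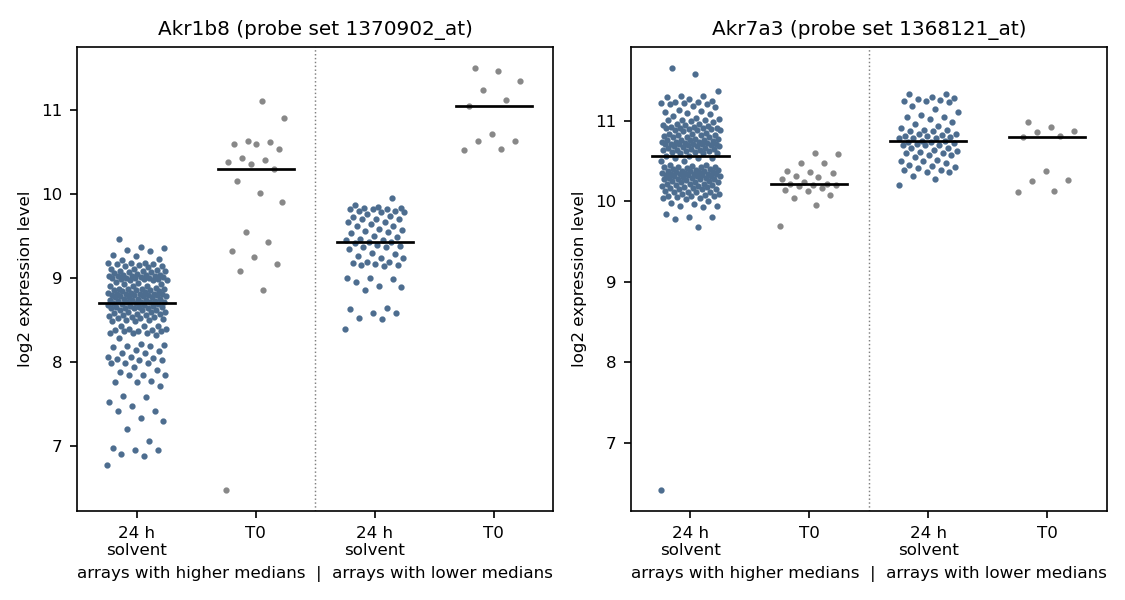
Log2 expression level (y axis) of Akr1b8 (left) and Akr7a3 (right) on each 24 h solvent control array and each T0 array, split by array batch (median of 5.4 and above on the left of each panel, under it on the right); lines are medians. Akr1b8 is lower after 24 h with solvent in both batches, and the groups of Akr7a3 overlap.

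The level of Akr1b8 without compound differed much between experiments. Over the 256 control arrays it ran from 6.77 to 9.95, with a median of 8.81. The mean of the control arrays of 1 compound was lowest for NNK (7.49 ± 0.41, n = 9) and diethylstilbestrol (7.59 ± 0.63, n = 9), and highest for allyl alcohol (9.60 ± 0.17, n = 9) and clonidine (9.58 ± 0.18, n = 9). The neighbours within each of these 2 ends did not differ beyond their spread, while the ends did. Within a compound and level the SD of the control arrays had a median of 0.16. Arrays of the batch with lower medians averaged 9.37 ± 0.40 (n = 67), against 8.56 ± 0.56 (n = 189) in the other, and the experiments and the batch cannot be told apart for compounds that lie in 1 batch. The control means of Akr7a3 per compound lay between 9.95 ± 1.76 for dehydroepiandrosterone (n = 6, which includes the distant array) or 10.11 ± 0.25 for NNK (n = 9) and 11.15 ± 0.12 for N-nitrosomorpholine (n = 9). Its median over control arrays was 10.64. Each fold change is relative to the control arrays of its own dishes.

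The probe sets most like each member were sought by Pearson's r of the mean differences over the 86 pairs, as a description. For Akr1b8 the nearest probe set had r = 0.78 and the next r = 0.76. For Akr7a3 the nearest had r = 0.71 and the next r = 0.70, and once the distant arrays were left out these had r of 0.66 and 0.63 and another probe set was nearest (r = 0.69). None of these probe sets could be given a gene name here.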

How the data were processed

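The deposited table gives each probe set a log2 expression level on every array, and the submitters' processing notes name RMA (robust multi-array average) without a version. Whether all arrays were processed together is not given in the sources used here. The authors' second file holds the name, abbreviation and class of each compound.

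From these values, 57 control probe sets were set aside and used for array checks only. limma 3.58.1 in R 4.3.3 (lmFit and eBayes) was fitted for each compound to the dish differences, treated minus control with the same level and replicate number. Adjustment was by Benjamini-Hochberg over 31042 probe sets, and an SE is limma's moderated one. T0, class and related-compound contrasts were fitted as the report describes. Pairing follows the design text of the series, by which treated and control wells share dishes and replicates are different rats. In the values it was weak. The mean correlation of deviations was 0.04 for the same number and -0.02 for different numbers, and in 9 of 84 comparisons every pair exceeded 0.1.

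Alternatives were the fit with no replicate block, each replicate left out in turn, quantile normalization, array batch or spike-in signal as a term, leaving out the 4 distant arrays, a mean-dependent robust spread, a spread pooled over compounds, and the probe sets above the median mean level. The pooled spread keeps the dishes with distant arrays. The batch, spike-in and distance limits were set on the data. For classes and related compounds, leaving out the distant arrays was added after seeing the data, as was the low-level share without 2-acetylaminofluorene. The members and lists were chosen with earlier results of these data known. Members are described by array where called, and others by range; likeness was to name the nearest 5 probe sets, of which 2 are given. Lists of other aldo-keto reductases, aldehyde enzymes, Nrf2, PPARα and Ah receptor targets and cell type markers could not be applied without a table pairing probe sets with genes, so the hepatocyte label was not checked against markers. Compound effects at the high level, with and without the replicate block, the T0 test and GT minus NC were run first on simulated data. The other contrasts and alternatives were not. Figures were drawn with matplotlib.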

Additional observations from a re-analysis of the deposited data

Results flagged for a closer look

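The effect on Akr7a3 differed between N-nitrosopiperidine and NNK at 333 µM by -0.80 on the log2 scale (adjusted p = 0.0309 by limma over all probe sets and 9 pairs of compounds). It was singled out because the difference between 2 compounds under the same contrast was itself tested and called. All 3 dishes were lower than their controls with N-nitrosopiperidine and all 3 were higher with NNK. The call was lost with no replicate block (adjusted p = 0.0562) and without any 1 replicate (adjusted p between 0.116 and 0.212), and at 1000 µM the same compounds differed by -0.09, or by -0.30 without the dish that holds a distant control array. GAPDH differed by -0.42 with N-nitrosopiperidine and by 0.09 with NNK at 333 µM. The control means differed more than the treated means.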

How the results depend on the processing

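Of the results that answer a comparison, the change of Akr1b8 between 24 h solvent culture and T0 stayed called under all 9 alternatives (-1.61 to -1.34). That of Akr7a3 kept its direction (0.14 to 0.31) and was lost after quantile normalization (0.14, adjusted p = 0.0576). The number of pairs in which Akr1b8 rose (10) was between 5 and 11 with a replicate left out, and its falls were 1 with the pooled spread and 0 to 1 with a replicate left out. The number in which Akr7a3 rose (13) was 8 with the robust spread, 6 with the pooled spread and 5 to 10 with a replicate left out, and its falls (3) were 5 over the probe sets above the median mean level and 1 to 2 with a replicate left out. Contrasts of the highest with the lowest concentration (5 for each member) were 2 to 5 for Akr1b8 and 0 to 3 for Akr7a3 with a replicate left out. For Akr7a3 they were 3 with the robust spread and 2 with the pooled spread, and these 2 were not among the 5 reported. With no replicate block, Akr1b8 rose in 11 pairs, 9 of them the same, and Akr7a3 rose in 14, 12 of them the same, and fell in 2. The related compounds gave 0 differences of Akr7a3 with no replicate block, 0 without each replicate and 2 after quantile normalization. The class difference of Akr7a3 for NG minus NC was close to 0 (-0.0013), and its sign turned after quantile normalization (0.0473) and with a replicate left out (-0.0885 to 0.0697, positive without replicate 1 or 3). Leaving out a replicate leaves 2 dishes per pair, and the cause of the other shifts was not tested. The spike-in term was fitted for N-nitrosopiperidine, methylendianiline and methylcarbamate and could not be fitted for 2-acetylaminofluorene. The batch term was fitted for N-nitrosomorpholine, diethylstilbestrol and ethionine. For other compounds both repeat the values as reported.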
